A study of Mus musculus with 6 samples.

Results

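Heat shock proteins and other molecular chaperones were followed at the mRNA level in myeloid-derived suppressor cells (MDSCs) from the spleens of aged mice. Genes were chosen by symbol alone. Symbols beginning with Hsp, Dnaj, Cct, Bag, Pfdn, Fkbp or Pdia were taken, together with the cyclophilins Ppia to Ppih, and this gave 78 of the 8191 genes in the deposited table. The naming rule uses no measured value, but it was set with earlier results of these data known. The table it was applied to holds only genes that passed a filter on the same values, as described below. The 78 genes included 3 HSP90 genes, 6 of the HSP70 and HSP110 family, 2 with small heat shock protein symbols (Hspb) and 2 mitochondrial chaperonin subunits. Among them were also 26 J-domain (Dnaj) genes, 7 CCT subunits, 3 prefoldins and 6 BAG genes. The rest were 11 FK506-binding proteins, 6 cyclophilins, 4 protein disulfide isomerases (PDIs) and 2 further genes, Hspbp1 and Hspbap1.

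The 6 samples came from the study's 3 genotypes, with 2 samples each: wild-type (WT) mice, Tnfr1-/- mice, which lack the TNF receptor TNFR1, and Tnfr2-/- mice, which lack TNFR2. All were BALB/c or on that background, were 18 to 24 months old and received no treatment. No deletion restricted to a cell type is described for either knockout. MDSCs, defined in the study as CD11b+ Gr-1+ cells, were isolated without culture and those of 5 mice were pooled for an experiment, so a sample is a pool and not a single animal.

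Chaperones bind unfolded or partly folded polypeptides and keep them from aggregating. HSP70 and HSP90 proteins work through cycles of ATP binding and hydrolysis. J-domain proteins bring clients to HSP70 and stimulate its ATPase, BAG proteins release the bound nucleotide from HSP70, and CCT and the mitochondrial chaperonin enclose clients in a chamber. FK506-binding proteins and cyclophilins speed the cis-trans turn of proline bonds, and PDIs form and rearrange disulfide bonds in the endoplasmic reticulum (ER). Many of these genes are induced by heat shock factor 1 (HSF1) through heat shock elements, which are alternating GAA and TTC units, and genes for ER chaperones are induced by unfolded protein in the ER through ER stress elements.

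Promoters were read for the 64 of the 78 genes that had an entry in the RefSeq table of promoters (GRCm38.p6), each window running from 250 bases before the transcription start to 50 after it. Hsp90aa1, Hsp90ab1, Hspa8, Hspa9 and Cct4 were among the members without an entry, so the shares below do not cover them. The elements are shown for 4 of the members described below, in 30-base windows for the heat shock elements and, for Hsp90b1, in the stretch before its first annotated exon. Capitals mark the matched letters. The sequences are written on the strand of the gene, which is the plus strand of chr1:55088053-55088082 for Hspe1 and the minus strand of chr6:128438789-128438818 for Fkbp4, of chr3:152193846-152193875 for Dnajb4 and of chr10:86705510-86705694 for Hsp90b1.
Hspe1: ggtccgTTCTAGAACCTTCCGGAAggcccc
Fkbp4: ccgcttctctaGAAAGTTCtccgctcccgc
Dnajb4: gttcgttcgttcgctgTTCTAGAAagtaca
Hsp90b1: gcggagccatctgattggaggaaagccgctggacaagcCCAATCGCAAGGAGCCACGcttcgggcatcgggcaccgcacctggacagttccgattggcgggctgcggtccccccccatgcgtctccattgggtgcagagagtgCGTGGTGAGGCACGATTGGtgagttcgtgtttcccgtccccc
These matches are descriptions of letters. A gene with more than 1 promoter window was counted if any of them held the element. For Dnajb4 the other window held none. A heat shock element of 2 units was searched as GAANNTTC or TTCNNGAA on both strands, and 12 of the 64 promoters (18.8%) held it, against 17.0% of the 27025 genes with a promoter in the table. With 3 units (GAANNTTCNNGAA or TTCNNGAANNTTC, each of which contains the 2-unit form) it was found in 3 promoters (4.7%), those of Hspd1, Hspe1 and Dnajb6, against 0.662% of all genes. Hspd1 and Hspe1 lie head to head, and the element printed for Hspe1 is also in a window of Hspd1. The ER stress element (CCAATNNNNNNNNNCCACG, either strand) was found in 3 promoters, with 2 matches in Hsp90b1, whose second match is on the opposite strand, and further matches in Pdia6 and Dnajc3. That is 4.7% of the 64 promoters against 0.137% of all genes.

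The value for each gene and sample was FPKM, fragments scaled to transcript length and library size, so levels of different genes are per length. The WT libraries stood apart from those of both knockouts before any chaperone was considered. The listed genes summed to 344714 and 346870 FPKM in WT and to 133604 to 155248 FPKM in the 4 knockout samples. The files give as many as 10 digits for a WT value and 6 for a knockout value, and these differences cannot be told apart from genotype. The median gene was accordingly lower in the knockouts, with a log2 change in log2(FPKM + 1) of -0.74 in Tnfr2-/- and -0.83 in Tnfr1-/- against WT. The comparisons of members with WT were therefore made on 2 scales: FPKM as deposited, and FPKM after median-ratio scaling, which sets the typical gene of each library to the same level and leaves medians over all genes of -0.03 in both comparisons.

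Cell markers also differed between the samples. Macrophage genes, of which 11 of 12 were listed and none was at 0, summed to 3180 and 3340 FPKM in WT and to 215 to 281 FPKM in the knockouts. Granulocyte genes, which mark granulocytic MDSCs, were listed for 3 of 15 (Csf3r, Retnlg and Mmp9) and summed to 15.4 and 13.7 FPKM in WT against 1520 to 3070 FPKM in the knockouts. The monocyte gene Ly6c1 was at 0.159 and 0.0638 FPKM in WT, near 0, and at 95.8 to 178 FPKM in the knockouts, and the monocyte list (6 of 8) summed to 247 and 261 FPKM in WT, 359 and 415 in Tnfr1-/-, and 692 and 825 in Tnfr2-/-. Most of the WT sum was Csf1r (225 and 237 FPKM), which was called lower in both knockouts while the other 5 listed monocyte genes were called higher, and in the macrophage list Cd163 was the 1 gene called higher. Of the dendritic cell genes 6 of 8 were listed, with 3 called lower in Tnfr2-/- and 4 in Tnfr1-/-, and 1, Flt3, called higher in both. Among those called lower was Itgax, a dendritic cell and macrophage gene, at 219 and 216 FPKM in WT and 12.5 to 17.1 in the knockouts. Ier2, the 1 gene listed of 14 that respond to cell handling, was at 44.7 and 45.5 FPKM in WT and 213 to 312 in the knockouts, and was called higher in both. B cell genes (5 of 10) summed to 46.8 and 47.0 FPKM in WT, 396 and 329 in Tnfr1-/-, and 174 and 301 in Tnfr2-/-, and Jchain, the 1 plasma cell gene listed of 7, was at 165 and 198, 1450 and 879, and 2190 and 2030 FPKM. Of the genes behind the defining markers, that of CD11b was not examined here and Ly6g was not listed. In the WT libraries Ly6c1 and the 3 listed granulocyte genes thus go against the MDSC label. The part of these differences in the chaperone values below was not tested, and in bulk RNA fewer cells of a type and less RNA per cell cannot be told apart. Tnfrsf1b, which encodes TNFR2, was at 112 and 115 FPKM in WT, 47.8 and 69.6 in Tnfr1-/-, and 11.3 and 14.3 in Tnfr2-/-; the TNFR1 gene was not analysed here.

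The table holds only genes whose one-way ANOVA over the 3 genotypes passed 0.05, so every chaperone gene in it had been picked for a difference between genotypes. The largest ANOVA p recomputed over the 78 genes was 0.0413. Under the same naming rule the mouse annotation (GENCODE M21, GRCm38) has 121 protein-coding genes, of which 77 (63.6%) were listed, against 37.1% of all protein-coding genes; Cct6a, annotated there as a processed transcript, is the other listed gene. The remaining 44, among them the inducible Hspa1a and Hspa1b, the ER HSP70 gene Hspa5, Hsph1, Hspb1, Dnajb1 and Fkbp5, were not analysed here.

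Of the 78 genes, 13 had a mean over the 6 samples above 50 FPKM, 61 lay between 1 and 50 FPKM, and 4 were below 1 FPKM. Ppia, Hspa8, Hsp90ab1, Hsp90b1 and Pdia3 together made up 57.1% of the summed chaperone FPKM in both WT samples, 52.1% and 53.2% in Tnfr1-/-, and 56.1% and 55.3% in Tnfr2-/-. The 78 genes were 1.57% and 1.59% of all FPKM in the table in WT, 1.33% and 1.32% in Tnfr1-/-, and 1.44% and 1.76% in Tnfr2-/-. The chaperone share was thus lower in both Tnfr1-/- samples than in WT, while the Tnfr2-/- samples lay on either side of WT.

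The first question was how chaperone mRNAs of aged MDSCs without a TNF receptor compared with those of WT. On deposited FPKM most were lower in both knockouts. In Tnfr2-/- 59 of the 78 were called lower (adjusted p under 0.05 and a fold change over 1.5 in limma's moderated test) and 3 were called higher, where 57.1% of all 8191 genes were called lower and 13.6% higher. In Tnfr1-/- 66 were called lower and 3 higher, against 60.7% and 14.1% of all genes. The median log2 change of the members was -1.06 in Tnfr2-/- and -1.31 in Tnfr1-/-, beside the all-gene medians of -0.74 and -0.83. Both comparisons use the same WT samples.

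After median-ratio scaling the split moved. In Tnfr2-/- 19 members were called lower and 6 higher, against 21.0% and 21.8% of all genes, and 24 members that were below WT on deposited FPKM were above it. In Tnfr1-/- 24 were called lower and 6 higher, against 22.1% and 23.3% of all genes, and 18 members turned from below to above. The members' medians on this scale were -0.20 and -0.35. The share of members called lower in Tnfr2-/- was therefore near that of all genes once libraries were scaled, and in Tnfr1-/- it was above it. In both knockouts the share of members called higher was below that of all genes.

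**Figure D1:**
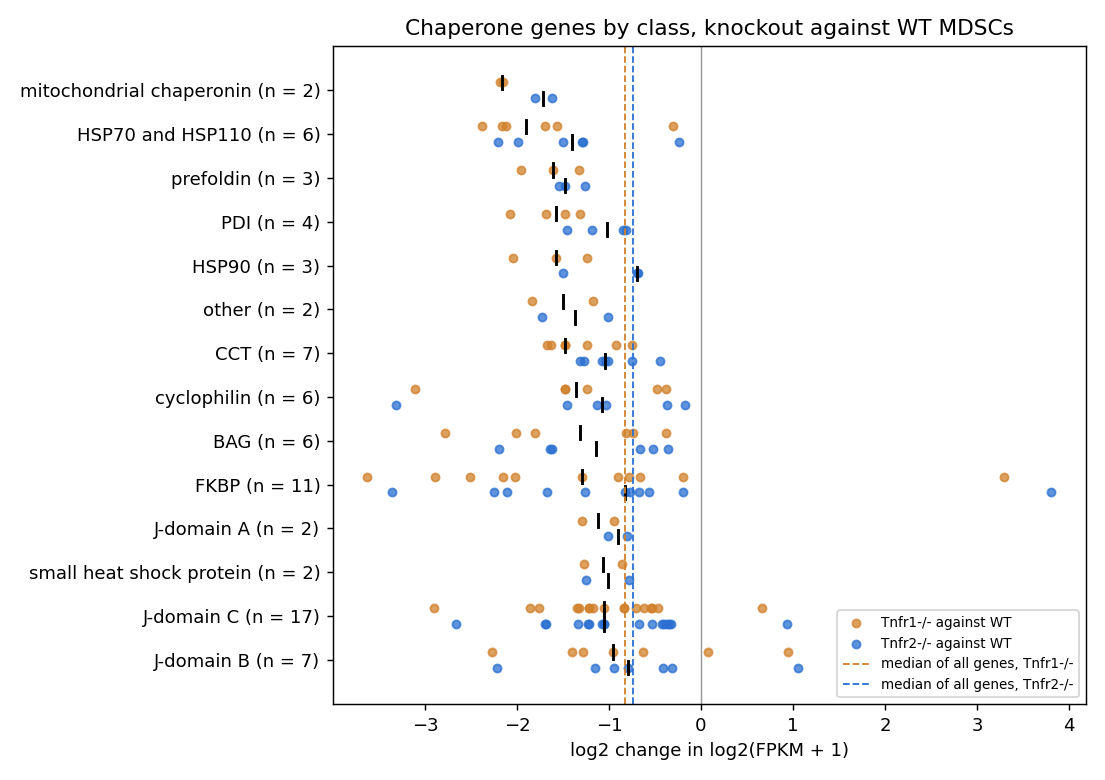
Log2 change in log2(FPKM + 1) on deposited FPKM of the 78 chaperone genes against WT, by class. Each point is a gene (orange, Tnfr1-/-; blue, Tnfr2-/-), black ticks are class medians and dashed lines are the medians of all 8191 genes (-0.83 and -0.74). Class medians lie to the left of both dashed lines in both knockouts for all classes except HSP90, FKBP and J-domain B. For these it holds in Tnfr1-/- only. Fkbp2, the point above 3 in each knockout, is listed at 0 in WT, so its position depends on the 1 added to each value.

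The 3 HSP90 genes were all called lower in both knockouts on deposited FPKM. Hsp90ab1, the constitutive cytosolic HSP90, was at 538 and 566 FPKM in WT, 133 in both Tnfr1-/- samples, and 173 and 217 in Tnfr2-/-. Its log2 change was -1.51 ± 0.14 (SE) in Tnfr2-/- (adjusted p = 0.000414) and -2.04 ± 0.14 in Tnfr1-/- (adjusted p = 0.000143), and after scaling it was at -0.51, short of the call, and at -0.91, called lower. Hsp90b1, the HSP90 of the ER (GRP94), whose promoter holds both ER stress elements printed above, was at 374 and 390 FPKM in WT, 141 and 115 in Tnfr1-/-, and 193 and 291 in Tnfr2-/-. Its log2 change against WT was -0.69 ± 0.23 in Tnfr2-/- (adjusted p = 0.0334), which turned to 0.31 after scaling, and -1.58 ± 0.23 in Tnfr1-/-, which stayed negative at -0.44. The Tnfr2-/- call was not stable on deposited FPKM either: the adjusted p was 0.116 and 0.138 with either WT sample left out, 0.0509 and 0.0513 with either Tnfr1-/- sample left out, 0.0715 without Tnfr2-/- sample 1, where the change was -0.39, and 0.0527 with the replicate block. Hsp90aa1, the stress-inducible cytosolic HSP90, was at 79.5 and 80.3 FPKM in WT, 32.8 and 34.0 in Tnfr1-/-, and 49.3 and 48.4 in Tnfr2-/-, with scaled changes of 0.28 in Tnfr2-/- and -0.11 in Tnfr1-/-. Of the 50-base windows of the Hsp90aa1 transcript, 58.5% also occur in another gene, so its value is uncertain.

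Ratios within a library do not depend on the scaling. Hsp90b1 made up 37.8% and 37.6% of the summed HSP90 FPKM in WT, 46.1% and 40.7% in Tnfr1-/-, and 46.4% and 52.3% in Tnfr2-/-. The share of Hsp90ab1 was 54.2% and 54.6% in WT, 43.2% and 47.3% in Tnfr1-/-, and 41.7% and 39.0% in Tnfr2-/-. All 4 knockout samples thus lay above WT for the share of the ER form and below it for the constitutive cytosolic form. For either knockout alone against WT, 2 samples against 2, an exact two-sided permutation test cannot go below 0.333.

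**Figure D2:**
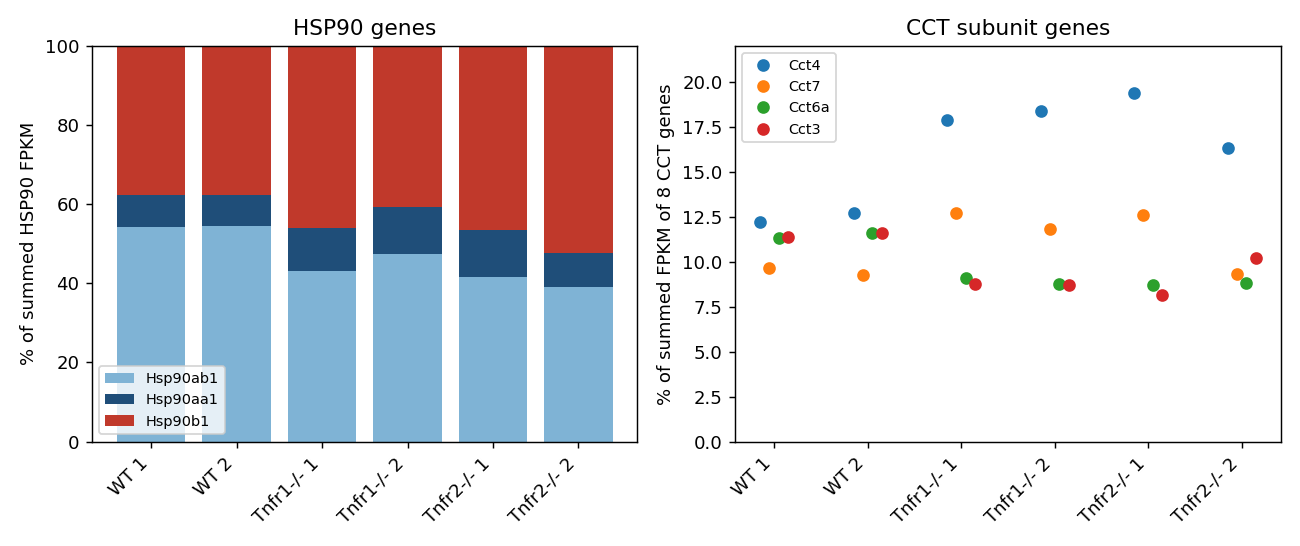
Left, share of each HSP90 gene in the summed HSP90 FPKM of each of the 6 samples, in percent. Right, share of 4 CCT genes in the summed FPKM of 8 CCT genes, in percent, with points shifted sideways to keep them apart. The Hsp90b1 share is highest in the Tnfr2-/- samples (46.4% and 52.3%), and Cct4 is at 12.2% and 12.7% in WT and at 16.3% to 19.4% in the knockouts.

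In the HSP70 and HSP110 family 5 of 6 genes were called lower in each knockout on deposited FPKM, and all 6 stayed below WT after scaling. Hspa8, the constitutive HSP70 (HSC70), was at 746 and 779 FPKM in WT, 152 and 202 in Tnfr1-/-, and 262 and 275 in Tnfr2-/-. Its log2 change was -1.50 ± 0.17 in Tnfr2-/- (adjusted p = 0.000779) and -2.11 ± 0.17 in Tnfr1-/- (adjusted p = 0.000233); 74.8% of its 50-base windows also occur in other genes. Hspa9, the mitochondrial HSP70 (mortalin), was at 89.8 and 93.8 FPKM in WT, 19.9 and 19.7 in Tnfr1-/-, and 17.0 and 29.2 in Tnfr2-/-, with log2 changes of -1.99 ± 0.25 and -2.16 ± 0.25 in Tnfr2-/- and Tnfr1-/-. Hspa14, a ribosome-bound HSP70, had the largest fall of the family on log2(FPKM + 1). It went from 25.6 and 27.4 FPKM in WT to 4.65 and 3.90 in Tnfr1-/- and 4.42 and 5.56 in Tnfr2-/- (log2 change -2.20 ± 0.13 in Tnfr2-/-, adjusted p = 0.000119). By the ratio of mean FPKM in Tnfr1-/-, Hspa12b, at only 0.232 and 0.271 FPKM in WT, fell further (25.5-fold) than Hspa14 (6.2-fold). Hspa9 and Hspa14 were called lower on both scales in both knockouts, and Hspa8 on both scales in Tnfr1-/- only; in Tnfr2-/- its scaled change was -0.51 (adjusted p = 0.0604).

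The mitochondrial chaperonin pair moved with Hspa9. Hspd1 (HSP60) was at 88.3 and 93.8 FPKM in WT, 19.8 and 18.7 in Tnfr1-/-, and 21.3 and 29.9 in Tnfr2-/-, and its co-chaperonin Hspe1 (HSP10) at 107 and 98.9, 24 and 20.8, and 25.8 and 41.2 FPKM. Hspd1 changed by -1.81 ± 0.17 in Tnfr2-/- (adjusted p = 0.000408) and -2.18 ± 0.17 in Tnfr1-/- (adjusted p = 0.000201), and Hspe1 by -1.62 ± 0.23 and -2.15 ± 0.23. Both were called lower on both scales in both knockouts. These genes overlap each other in the annotation and 44.8% of the windows of each occur in another gene, so their values are not independent. Of the 8 members that work in mitochondria, 7 were called lower in Tnfr2-/- and 8 in Tnfr1-/- on deposited FPKM, and 5 in each after scaling. They took 7.16% and 7.03% of the summed chaperone FPKM in WT, 5.07% and 4.71% in Tnfr1-/-, and 4.28% and 4.99% in Tnfr2-/-. The assignment of members to mitochondria (8), the ER (14) or elsewhere (56) is from textbook knowledge and was made after the values were seen.

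Both genes with Hspb symbols, Hspb6 and Hspb11, were called lower in both knockouts on deposited FPKM, and neither after scaling. Scaled changes in Tnfr2-/- and Tnfr1-/- were -0.53 and -0.47 for Hspb6 and -0.37 and -0.43 for Hspb11. Hspb6 (HSP20) was at 4.39 and 4.28 FPKM in WT, 1.35 and 1.08 in Tnfr1-/-, and 1.17 and 1.33 in Tnfr2-/-, with a log2 change of -1.25 ± 0.09 in Tnfr2-/- (adjusted p = 0.000179); it overlaps 2 other protein-coding genes, and the strand of the counting is not given in the sources used here. Hspbp1, an HSP70 nucleotide exchange factor, was at 20.1 and 19.1 FPKM in WT, 4.37 and 5.22 in Tnfr1-/-, and 4 and 6.68 in Tnfr2-/-, and was called lower on both scales in both knockouts.

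The J-domain genes were the most mixed group. Of 26, 16 were called lower and 2 higher in Tnfr2-/- on deposited FPKM, and after scaling 4 were called lower and 4 higher. Dnaja2, a general cytosolic HSP70 partner, was at 47.0 and 48.7 FPKM in WT, 24.4 and 24.5 in Tnfr1-/-, and 25.0 and 29 in Tnfr2-/-, and its change against WT turned from -0.80 to 0.16 in Tnfr2-/- after scaling. Dnajc15, a J-domain protein of the inner mitochondrial membrane, was at 52.3 and 52.8 FPKM in WT, 5.79 and 6.52 in Tnfr1-/-, and 6.39 and 8.71 in Tnfr2-/-. Its log2 change of -2.66 ± 0.15 in Tnfr2-/- (adjusted p = 9.51e-05) and -2.91 ± 0.15 in Tnfr1-/- (adjusted p = 6.49e-05) was the largest fall among the J-domain genes on log2(FPKM + 1), and it remained at -1.71 and -1.83 after scaling. Dnajb13, a testis and cilium gene in other tissues, was at 5.31 and 4.64 FPKM in WT, 0.150 and 0.331 in Tnfr1-/-, and 0.224 and 0.347 in Tnfr2-/-; 10.1% of its windows occur elsewhere and it overlaps Ucp2. By the ratio of mean FPKM, without the added 1, Dnajb13 fell further in Tnfr2-/- (17.4-fold) than Dnajc15 (6.96-fold).

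Dnajb4 and Dnajc21 went the other way. Dnajb4 is a cytosolic partner of HSP70, with the 2-unit heat shock element printed above in 1 of its promoter windows but not in the other. It was at 1.94 and 1.69 FPKM in WT, 4.57 and 4.32 in Tnfr1-/-, and 4.97 and 4.76 in Tnfr2-/-. It rose by 1.06 ± 0.09 on the log2 scale in Tnfr2-/- (adjusted p = 0.000325) and 0.95 ± 0.09 in Tnfr1-/- (adjusted p = 0.000394), and by 1.71 and 1.72 after scaling. Dnajc21, a J-domain protein of ribosome assembly, was at 2.96 and 2.87 FPKM in WT, 5.47 and 4.95 in Tnfr1-/-, and 5.75 and 7.29 in Tnfr2-/-, with log2 changes of 0.93 ± 0.13 (adjusted p = 0.00158) and 0.66 ± 0.13 (adjusted p = 0.00478). For both genes all 4 knockout samples lay above both WT samples. Dnajc8, a J-domain protein tied to splicing, was at 55.6 and 59.3 FPKM in WT, 39.3 and 38.8 in Tnfr1-/-, and 43.8 and 46.2 in Tnfr2-/-, and its change in Tnfr2-/- turned from -0.34 to 0.63 after scaling.

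All 7 CCT subunits were below WT in both knockouts on deposited FPKM, and 6 in Tnfr2-/- and 7 in Tnfr1-/- were called lower; CCT folds actin and tubulin. Cct4 and Cct7 turned above WT in both knockouts after scaling and the other 5 did not. Cct4 was at 76.8 and 83.2 FPKM in WT, 47.1 and 46.9 in Tnfr1-/-, and 54.3 and 63.3 in Tnfr2-/-, with a log2 change of -0.44 ± 0.10 in Tnfr2-/- (adjusted p = 0.00854), short of 1.5-fold, and of 0.54 after scaling. Cct3 was at 72.1 and 76.2, 23.0 and 22.1, and 22.8 and 39.5 FPKM in WT, Tnfr1-/- and Tnfr2-/-. Cct6a was at 71.1 and 75.9, 23.8 and 22.3, and 24.4 and 34.2 FPKM, and overlaps Psph. In Tnfr2-/- Cct3 changed by -1.27 ± 0.25 and Cct6a by -1.32 ± 0.17 on deposited FPKM, and by -0.30 and -0.34 after scaling. Of the 8 CCT genes (the 7 members and Tcp1, the subunit whose symbol lies outside the rule), Cct4 took 12.2% and 12.7% of the summed FPKM in WT, 17.9% and 18.4% in Tnfr1-/-, and 19.4% and 16.3% in Tnfr2-/-. Cct7 took 9.63% and 9.27% in WT, 12.7% and 11.8% in Tnfr1-/-, and 12.6% and 9.31% in Tnfr2-/-. The 8 subunits occur once each in every ring of the complex.

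The 3 prefoldins, which hand actin and tubulin to CCT, were called lower in both knockouts on deposited FPKM, and 1 of them, Pfdn1, also after scaling. Pfdn1 was at 25.6 and 23.9 FPKM in WT, 6.53 and 4.81 in Tnfr1-/-, and 6.44 and 9.42 in Tnfr2-/-. Pfdn6, the highest of them, was at 58.5 and 61.3, 20 and 18, and 16.6 and 25.9 FPKM.

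Among the BAG genes 4 of 6 were called lower in Tnfr2-/- and 5 of 6 in Tnfr1-/-, and after scaling Bag1, Bag2 and Bag3 in each. Bag1 was at 99.9 and 98.3 FPKM in WT, 22.3 and 25.5 in Tnfr1-/-, and 30.6 and 32.4 in Tnfr2-/-, with a log2 change of -1.62 ± 0.09 in Tnfr2-/- (adjusted p = 8.2e-05). Bag3, an HSF1 target that links HSP70 to autophagy, was at 23.0 and 26.3 FPKM in WT, 2.27 and 3.24 in Tnfr1-/-, and 3.85 and 5.47 in Tnfr2-/-. It changed by -2.19 ± 0.20 in Tnfr2-/- (adjusted p = 0.00043) and -2.78 ± 0.20 in Tnfr1-/- (adjusted p = 0.000181), and by -1.28 and -1.78 after scaling.

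Of the 11 FK506-binding proteins, 8 were called lower in Tnfr2-/- and 9 in Tnfr1-/- on deposited FPKM, and 4 and 5 after scaling. Fkbp9, an isomerase of the ER, was at 15.4 and 16 FPKM in WT, 0.385 and 0.319 in Tnfr1-/-, and 0.646 and 0.619 in Tnfr2-/-, a log2 change of -3.35 ± 0.07 in Tnfr2-/- (adjusted p = 8e-06) and -3.63 ± 0.07 in Tnfr1-/- (adjusted p = 6.42e-06). Fkbp1a (FKBP12), the target of rapamycin and FK506, was at 93.3 and 89.0 FPKM in WT, 13.4 and 17.0 in Tnfr1-/-, and 16.4 and 25.3 in Tnfr2-/-, a change of -2.11 ± 0.23 in Tnfr2-/- (adjusted p = 0.000671). Both were called lower on both scales in both knockouts. Fkbp2, an FK506-binding protein of the ER, was listed at 0 in both WT samples and at 10.4 and 7.43 FPKM in Tnfr1-/- and 11.7 and 14.5 in Tnfr2-/-. Over all genes, 136 were listed at 0 in both WT samples, and no fold is given. Fkbp4 (FKBP52), an HSP90 co-chaperone with the heat shock element printed above, was at 28.6 and 31.1 FPKM in WT, 11.2 and 11.8 in Tnfr1-/-, and 17.2 and 17.1 in Tnfr2-/-. It was called lower in both knockouts on deposited FPKM, and in Tnfr2-/- its change turned from -0.77 to 0.19 after scaling.

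Ppia (cyclophilin A), the highest of all members, was at 1160 and 1130 FPKM in WT, 422 and 402 in Tnfr1-/-, and 471 and 582 in Tnfr2-/-, and made up 93.8% to 95.3% of the cyclophilin FPKM in every sample. Its log2 change in Tnfr2-/- was -1.13 ± 0.17 (adjusted p = 0.0022) and -0.14 after scaling (adjusted p = 0.485), and 38.8% of its windows occur in other genes. Ppic (cyclophilin C) fell from 10.1 and 11 FPKM in WT to 0.337 and 0.339 in Tnfr1-/- and 0.143 and 0.177 in Tnfr2-/-, by -3.32 ± 0.06 in Tnfr2-/- (adjusted p = 6.63e-06) and -3.11 ± 0.06 in Tnfr1-/- (adjusted p = 6.73e-06). Its scaled changes were -2.63 and -2.34. All 4 knockout samples were far below both WT samples.

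All 4 PDI genes were called lower in both knockouts on deposited FPKM. Pdia3 (ERp57), which works on glycoproteins with calnexin and calreticulin, was at 277 and 284 FPKM in WT, 85.7 and 87.7 in Tnfr1-/-, and 105 and 144 in Tnfr2-/-. Pdia4 (ERp72) was at 104 and 106, 25.3 and 22.9, and 27.7 and 51.3 FPKM, and Dnajb11 (ERdj3), the J-domain partner of the ER HSP70, at 49.8 and 53.5, 20.1 and 17.9, and 23.8 and 36.0 FPKM. The log2 changes in Tnfr2-/- were -1.19 ± 0.16 for Pdia3, -1.46 ± 0.29 for Pdia4 and -0.80 ± 0.20 for Dnajb11 on deposited FPKM, and -0.20, -0.48 and 0.17 after scaling. The Dnajb11 call in Tnfr2-/- was lost with either WT sample left out, where its change was -0.85 and -0.75. It was also lost without Tnfr2-/- sample 1, where the change was -0.51, short of 1.5-fold.

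**Figure D3:**
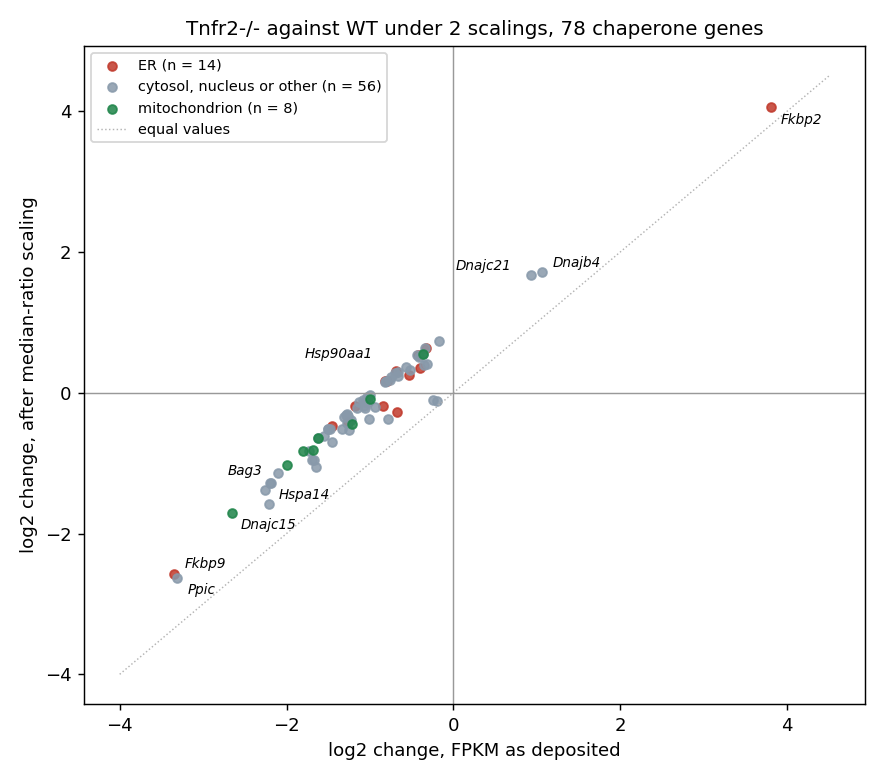
Log2 change of the 78 chaperone genes in Tnfr2-/- against WT on deposited FPKM (x axis) and after median-ratio scaling (y axis), each on log2(FPKM + 1), with points coloured by cell compartment. Points in the upper left quadrant, 24 in all, change sign between the scales; Fkbp9, Ppic and Dnajc15 are far below 0 on both and Dnajb4 and Dnajc21 above 0 on both. Fkbp2 is listed at 0 in WT and its position depends on the 1 added.

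Counted over both scales and both knockouts, 19 members were called lower throughout: Bag1, Bag2, Bag3, Dnajb13, Dnajc11, Dnajc12, Dnajc15, Fkbp1a, Fkbp1b, Fkbp9, Fkbpl, Hspa9, Hspa14, Hspbp1, Hspd1, Hspe1, Pfdn1, Ppic and Ppih. For these the call was the same on either scale. The 3 called higher throughout were Dnajb4, Dnajc21 and Fkbp2. The share of all genes called alike throughout was not counted. After scaling alone, 21.0% of all genes were called lower and 21.8% higher in Tnfr2-/-, and 22.1% and 23.3% in Tnfr1-/-. The knockouts share their WT control, so agreement between them is not independent evidence.

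**Figure D4:**
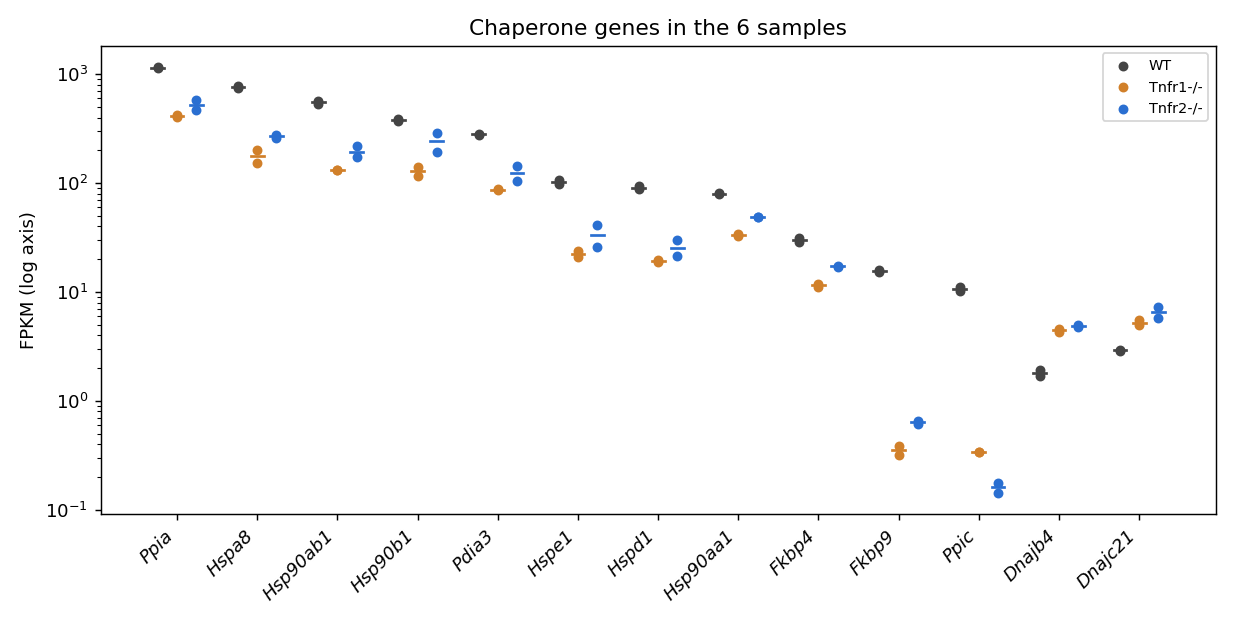
FPKM (log axis) of 13 chaperone genes in the 6 samples; points are samples and short lines are means of the 2 samples of a genotype. WT points lie above all knockout points for the 11 genes from Ppia to Ppic and below them for Dnajb4 and Dnajc21, and the Tnfr2-/- points lie above the Tnfr1-/- points for Hsp90aa1 and Fkbp4 with little spread.

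The second question was whether the loss of TNFR2 differed from the loss of TNFR1. On deposited FPKM 73 of the 78 members had a positive log2 change in Tnfr2-/- against Tnfr1-/-, against 63.1% of all genes, with a median of 0.21 beside 0.06 for all genes. After median-ratio scaling 56 were positive, with a median of 0.09, beside 3631 of 8191 genes and a median of -0.02 over all. None was called in either direction by limma, against 0.842% of all genes called higher and 0.61% lower, and 22 of 78 had an unadjusted p under 0.05, of which 20 were positive, beside 1962 of 8191 genes, of which 1306 were positive. Both Tnfr2-/- samples lay above both Tnfr1-/- samples for 44 members, against 34.9% of all genes, and below both for 2, Ppic and Dnajb2, against 16.1%.

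An adjusted p under 0.05 was reached by 2 of the 78 members, beside 218 of 8191 genes in either direction. Both members were higher in Tnfr2-/-, as were 1.38% of all genes by that rule, and both fell short of 1.5-fold. Hsp90aa1, at 32.8 and 34.0 FPKM in Tnfr1-/- and 49.3 and 48.4 in Tnfr2-/-, differed by 0.54 ± 0.06 (adjusted p = 0.0378). Fkbp4, which binds HSP90 through its tetratricopeptide repeats, at 11.2 and 11.8 and at 17.2 and 17.1 FPKM, differed by 0.53 ± 0.07 (adjusted p = 0.0407). Over 14 other settings of the analysis the adjusted p (8 settings and each of 6 samples left out) ran from 0.0267 to 0.16 for Hsp90aa1 and from 0.0349 to 0.16 for Fkbp4, and was under 0.05 in 3 of the 14 for each. The difference itself stayed positive throughout, between 0.37 and 0.56 for Hsp90aa1 and between 0.40 and 0.57 for Fkbp4. In WT both genes were higher than in either knockout on deposited FPKM, at 79.5 and 80.3 and at 28.6 and 31.1 FPKM.

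Members assigned to the ER had the largest median difference between the knockouts. The assignment, made after the values were seen, left Dnajb12, Dnajc16 and Ppic elsewhere, though each could also be placed in the ER. Their differences were 0.215, -0.017 and -0.206, so the counts of signs here hold for this assignment only. All 14 members assigned to the ER were positive on deposited FPKM. Their median was 0.48, against 0.27 for the 8 mitochondrial members and 0.16 for the other 56. After scaling 13 of 14 were positive, with a median of 0.37. The largest were Fkbp11, an isomerase of secretory cells (1.52 and 1.19 FPKM in Tnfr1-/-, 2.16 and 5 in Tnfr2-/-), and Hsp90b1 (141 and 115, and 193 and 291 FPKM), each at 0.89, with adjusted p-values of 0.178 and 0.107. Neither these nor the 4 PDI genes, at 0.47 to 0.66, passed the test. The summed FPKM of the ER members was 384 and 349 in Tnfr1-/- and 481 and 700 in Tnfr2-/-. The plasma cell gene Jchain was also higher in the Tnfr2-/- samples (2190 and 2030 against 1450 and 879 FPKM), as was the monocyte list, while the B cell list was lower; their part in the ER values was not tested.

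The 2 Tnfr2-/- samples differed from each other more than those of the other genotypes did. The typical SD between replicates over the members, in log2(FPKM + 1), was 0.07 in WT, 0.13 in Tnfr1-/- and 0.28 in Tnfr2-/-, against 0.08, 0.14 and 0.22 over all genes. Sample 2 was above sample 1 for 62 of the 78 members (79.5%), against 57.6% of all genes. That held for 11 of 14 ER members, 8 of 8 mitochondrial members and 43 of the other 56. Without Tnfr2-/- sample 1, 15 members were called higher than in Tnfr1-/-, against 6.53% of all genes in the same fit: Fkbp11, Hsp90b1, Pdia4, Pdia6, Dnajb11, Hspe1, Pdia5, Cct3, Pdia3, Hsp90ab1, Cct5, Hspa4, Cct8, Hspd1 and Ppie. In that fit the remaining Tnfr2-/- sample is assumed to vary like the other groups. Without sample 2 none was called. Calls among ER and chaperonin genes in Tnfr2-/- over Tnfr1-/- were thus made only with sample 1 left out, whereas Hsp90aa1 and Fkbp4 were alike in both samples.

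**Figure D5:**
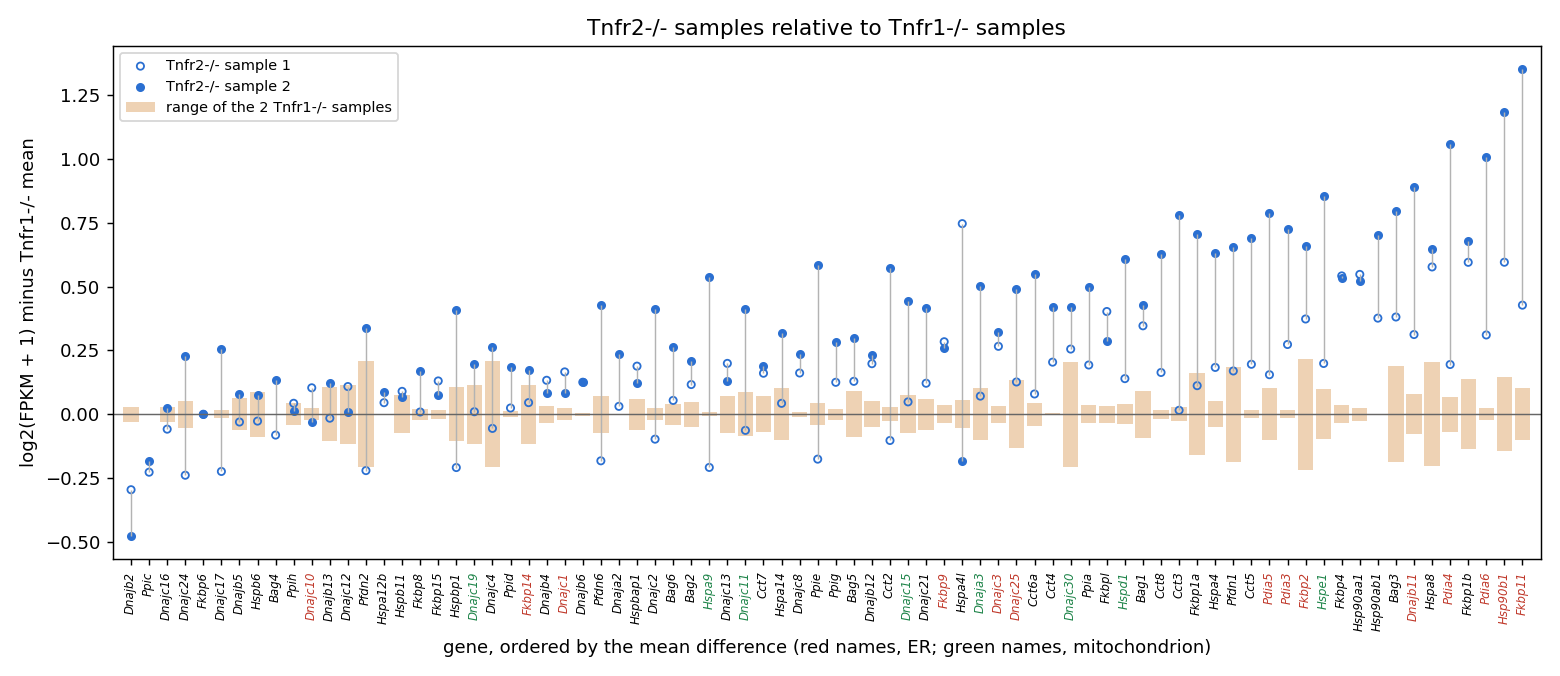
Each chaperone gene in the 2 Tnfr2-/- samples (open, sample 1; filled, sample 2) as log2(FPKM + 1) minus the mean of the 2 Tnfr1-/- samples, whose range is the shaded bar; genes are ordered by the mean difference, and red and green names are ER and mitochondrial members. Vertical lines join the 2 samples. Sample 2 lies far above sample 1 for Fkbp11 and Pdia4, at the right, and for Cct3, Ppie and Hspa9, and far below it for Hspa4l, while the points of Hsp90aa1 and Fkbp4 nearly coincide.

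Genes that work with the chaperones but lie outside the naming rule were counted from 5 lists, 71 of whose 110 genes were in the table. On deposited FPKM 52 of the 71 were called lower and 3 higher in Tnfr2-/- against WT, and 54 lower and 3 higher in Tnfr1-/-, with medians of -0.93 and -1.09; over all genes 57.1% and 60.7% were called lower and 13.6% and 14.1% higher. After median-ratio scaling 14 were called lower and 8 higher in Tnfr2-/-, and 20 and 12 in Tnfr1-/-. Of all genes, 21.0% were called lower and 21.8% higher in Tnfr2-/- on that scale, and 22.1% and 23.3% in Tnfr1-/-. Between the knockouts none was called by limma, and 59 were positive, against 63.1% of all genes. An unadjusted p under 0.05 in limma was reached by 17, all positive, beside 1962 of 8191 genes, of which 1306 were positive.

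Of the regulators, 3 of 7 heat shock factor genes were listed and all 3 were called lower in both knockouts on deposited FPKM. Hsf1, the main heat shock factor, was at 11.7 and 13 FPKM in WT, 7.65 and 7.01 in Tnfr1-/-, and 6.20 and 8.83 in Tnfr2-/-, and its change of -0.67 in Tnfr2-/- turned to 0.23 after scaling, as its -0.68 in Tnfr1-/- turned to 0.35. Of the cytosolic co-chaperones 28 of 33 were listed, with 22 called lower and 1 higher in Tnfr2-/-. The 1 called higher in both knockouts was Vbp1, a prefoldin subunit, at 20 and 18.8 FPKM in WT, 33.0 and 28.4 in Tnfr1-/-, and 34.7 and 35.1 in Tnfr2-/- (0.82 ± 0.09 in Tnfr2-/-, adjusted p = 0.000786). Vbp1 was opposite in direction to the 3 prefoldins named Pfdn on either scale, at 1.76 in Tnfr2-/- after scaling.

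Of the ER folding genes 17 of 28 were listed and 11 were called lower and none higher in Tnfr2-/- on deposited FPKM. Calr (calreticulin) was at 619 and 660 FPKM in WT, 104 in both Tnfr1-/- samples, and 118 and 180 in Tnfr2-/-, a change of -2.12 ± 0.21 in Tnfr2-/- that remained at -1.13 after scaling. P4hb, the founding PDI, was at 270 and 281, 68.8 and 67.7, and 92.1 and 123 FPKM, with a change of -1.36 in Tnfr2-/- that was -0.38 after scaling. Of the genes of the unfolded protein response and ER-associated degradation 11 of 26 were listed, with 2 called higher and 6 lower in Tnfr2-/-. Those called higher were Atf6 and Ern1, both sensors of unfolded protein in the ER. In Tnfr1-/- Ern1 was not called (log2 change 0.27, adjusted p = 0.133 in limma). Among the 6 called lower in Tnfr2-/- were Ddit3 (-0.60, and 0.26 after scaling) and Trib3 (-1.48, and -0.88 after scaling). Atf6 was at 8.76 and 7.90 FPKM in WT, 13.4 and 13.9 in Tnfr1-/-, and 16.1 and 21.6 in Tnfr2-/- (1.08 ± 0.15 in Tnfr2-/-, adjusted p = 0.00163), and Ern1 at 6.75 and 6.77, 9.28 and 7.47, and 12.1 and 15 FPKM; after scaling their changes in Tnfr2-/- were 1.96 and 1.76. Of the genes of mitochondrial protein quality control 12 of 16 were listed, with 10 called lower in Tnfr2-/-, 12 in Tnfr1-/- and none higher.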

How the data were processed

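RNA of splenic MDSCs (isolated by sorting per the labels, with a kit per the study's methods) was sequenced as single-end 50-base reads. The labels name the build mm10 and FastQC; the aligner and the tool that made the values are not given in the sources used here. The authors deposited FPKM for 8191 genes and 6 samples, normalized to transcript length and library size. They also deposited a p-value per gene, that of a one-way ANOVA over genotypes, which was not used here; recomputed on FPKM, the largest was 0.0500. Read counts were not used, so the depth is unknown and no counting interval is given.

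FPKM was compared as log2(FPKM + 1) by a linear model over all 6 samples, fitted and moderated with limma (3.58.1, R 4.3.3; eBayes with trend, two-sided), since the study's own count test does not suit FPKM. Genes with a Benjamini-Hochberg adjusted p under 0.05 over all 8191 genes and a fold change over 1.5 were called. Errors of log2 changes are SE. Samples were grouped by the genotype in their titles, and p-values measure the spread between 2 pools per genotype. The fit was tested on simulated data.

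The members and lists were chosen with earlier results of these data known. Given with all 6 values were, in each class, the member of highest mean FPKM and those called with the largest rise and fall, all members with an adjusted p under 0.05 between the knockouts, and well-known members; others named for a scale, sample or promoter were named after their values were seen. Genes were matched to GENCODE M21 and promoters to RefSeq (GRCm38.p6), and the share of 50-base transcript windows found in other genes was computed in Python 3.11.15. Alternatives were a pseudocount of 0.1, a mean of at least 1 FPKM, median-ratio and quantile scaling, only the 2 groups compared, a replicate block, eBayes without trend, a fold change over 2, adjustment as for 25000 genes, each sample left out, and a wider reading of the cyclophilin names.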

Additional observations from a re-analysis of the deposited data

How the results depend on the processing

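Scaling moved the counts against WT most, and leaving out Tnfr2-/- sample 1 those between the knockouts. Members called lower were 59 in Tnfr2-/- and 66 in Tnfr1-/- on deposited FPKM, 19 and 24 with median-ratio scaling, and 21 and 27 with quantile normalization; those called higher were 6 in each knockout with median-ratio scaling, and 1 in Tnfr1-/- at a fold change over 2. Between the knockouts 1 member, Fkbp1b, was called higher with a mean of at least 1 FPKM and with quantile normalization, and 0 to 15 were when each sample was left out in turn (15 without Tnfr2-/- sample 1). Against WT in Tnfr2-/-, changes that reversed with median-ratio and quantile scaling were 0.54 and 0.45 for Cct4, 0.16 and 0.012 for Dnaja2, 0.17 and 0.033 for Dnajb11, 0.63 and 0.51 for Dnajc8, 0.19 and 0.003 for Fkbp4, 0.28 and 0.19 for Hsp90aa1, and 0.31 and 0.48 for Hsp90b1, with 0.048 for Ppia under quantile scaling. In Tnfr1-/- they were 0.37 and 0.31 for Cct4, 0.17 and 0.029 for Dnaja2, and 0.57 and 0.48 for Dnajc8. Between the knockouts they were -0.006 and -0.017 for Dnaja2, -0.064 and -0.007 for Hspb6, -0.016 and -0.011 for Pfdn6, and, with median-ratio scaling, -0.013 for Dnajb4 and -0.026 for Hspbp1. With each sample left out, the differences between knockouts ran from -0.052 to 0.159 for Dnajb13, -0.21 to 0.54 for Hspa9, -0.064 to 0.11 for Hspb6, -0.21 to 0.41 for Hspbp1 and -0.18 to 0.43 for Pfdn6. By construction median-ratio scaling sets the typical gene and quantile scaling the whole distribution alike in all libraries; the cause of the difference in library totals was not tested. With the replicate number as a block, 58 members were called lower and 3 higher in Tnfr2-/-, and 66 and 3 in Tnfr1-/-. None was called between the knockouts. The study describes 2 independent experiments, and whether the sample number marks the experiment is not given. Deviations of samples of the same number had correlations of 0.022 to 0.046, and a shared batch was not tested further. With 2 samples a genotype and an ANOVA-filtered table, p-values are limited as evidence.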

Other observations

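The PPIL cyclophilins, whose symbols lie outside the rule, were not of 1 direction. Ppil1, a splicing cyclophilin, was at 32 and 30 FPKM in WT, 7.5 and 6.52 in Tnfr1-/-, and 6.94 and 9.43 in Tnfr2-/-, and was called lower in both knockouts on deposited FPKM. Ppil4 was at 12.5 and 12.2 FPKM in WT, 15.8 and 16.9 in Tnfr1-/-, and 18.3 and 17.7 in Tnfr2-/-, higher in all 4 knockout samples with a log2 change of 0.51 ± 0.07 in Tnfr2-/- (adjusted p = 0.00154 in limma), short of 1.5-fold. Taking all cyclophilin symbols beginning with Ppi would make 84 genes, of which 63 were called lower and 3 higher in Tnfr2-/- and 70 and 3 in Tnfr1-/-; this reading was added after the data were seen.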
